A study of Rattus norvegicus with 2 samples.

Results

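The renin-angiotensin-aldosterone system was described here through 8 genes, Agt, Ace, Mme, Enpep, Agtr1a, Agtr1b, Nr3c2 and Hsd11b2, in kidney RNA of Dahl salt-sensitive (Dahl-S) rats. A gene was taken when a probe set of the array carried its symbol and no other, and the brightest probe set was to stand for a gene with several. By this rule 7 of the 8 genes were measured, each by 1 probe set, of 22093 genes with a probe set of their own. The only probe set that lists Ace lists Ace3 as well, so the level of Ace was not analysed here. The control pool, titled DS, held whole-kidney RNA of 3 male Dahl-S rats, obtained at 3 weeks of age and, as the study's methods state, fed chow with 8% NaCl for 4 weeks (DSH). The pool titled DS+2.5%SF held RNA of 3 such rats on the same salt diet that also received sucroferric oxyhydroxide (SF), an iron-based binder of phosphate in the gut, at 25 mg per g of chow from 1 week after the diet began (DSH+2.5%SF). High salt was thus shared by both pools, and no pool of rats on normal salt was analysed here. Each pool was hybridized to 1 Clariom D array, so a difference between the pools has no replicate check and carries no p-value.

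In this system angiotensinogen is cut to angiotensin I, and angiotensin-converting enzyme turns angiotensin I into angiotensin II. Angiotensin II acts on AT1 receptors to constrict vessels and to raise sodium reabsorption, and it drives the adrenal cortex to release aldosterone. Aldosterone binds the mineralocorticoid receptor of the distal nephron, where it raises sodium reabsorption, and the system is best known in the kidney for its part in blood pressure and salt balance. In rodents the AT1 receptor is encoded by a pair of genes, Agtr1a and Agtr1b.

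The promoters of this pair are shown because each gene has a probe set that lists its symbol alone, although both encode the same kind of receptor. They are the RefSeq sequences of 250 bases before to 50 bases after the start, in build GRCr8, for Agtr1a at chr17:34435383-34435682 and for Agtr1b at chr2:104849213-104849512, both on the minus strand. Capitals mark every stretch of at least 8 bases that also occurs in the other sequence. Such stretches were merged where they overlap, so a run of capitals need not occur as a whole in the other sequence.
Agtr1a: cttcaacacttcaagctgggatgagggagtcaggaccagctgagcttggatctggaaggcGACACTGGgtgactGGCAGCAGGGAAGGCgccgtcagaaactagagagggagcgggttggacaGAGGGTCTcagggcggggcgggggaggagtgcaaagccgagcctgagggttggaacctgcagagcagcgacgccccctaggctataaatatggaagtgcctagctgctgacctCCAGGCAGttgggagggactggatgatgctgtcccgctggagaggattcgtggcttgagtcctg
Agtr1b: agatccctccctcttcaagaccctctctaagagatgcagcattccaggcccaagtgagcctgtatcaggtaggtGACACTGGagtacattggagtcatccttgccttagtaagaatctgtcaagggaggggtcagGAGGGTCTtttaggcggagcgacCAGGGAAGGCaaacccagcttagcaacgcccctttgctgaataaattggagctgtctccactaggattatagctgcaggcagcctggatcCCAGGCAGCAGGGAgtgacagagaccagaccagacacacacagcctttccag
Capitals covered 39 of 300 bases in Agtr1a and 40 of 300 in Agtr1b. The motif TATAAA, searched on both strands, lay 45 bases before the start of Agtr1a and was not found in the Agtr1b window, and 14.2% of 33469 rat promoter windows of this length held it. GC content was 60.7% for Agtr1a and 53.7% for Agtr1b.

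None of the 7 measured genes differed between the pools by enough to pass the study's criteria. A gene passed as higher in DSH+2.5%SF with a Z-score of at least 2.0 and a ratio of at least 1.5, and as lower with a Z-score of at most −2.0 and a ratio of at most 0.66. The methods give no formula for the Z-score, and the one used here is the log2 ratio of DSH+2.5%SF over DSH, minus its mean over all 68842 probe sets (0.03) and divided by its SD (0.34). In practice a gene had to be 1.63-fold higher or 1.57-fold lower. The count of 0 of 7 stands beside 2.45% of all genes that passed in either direction, 1.09% higher and 1.36% lower, so that with 7 genes it does not set them apart from the other genes. The largest ratio among the 7 was 1.24, for Mme, and the smallest was 0.871, for Agt. The log2 ratio was above 0 for 5 of the 7 and below 0 for 2, with a median of 0.19. Over all genes 43.4% had a log2 ratio above 0 and the median was 0, with 2018 genes at exactly the same intensity in both pools.

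**Figure D1:**
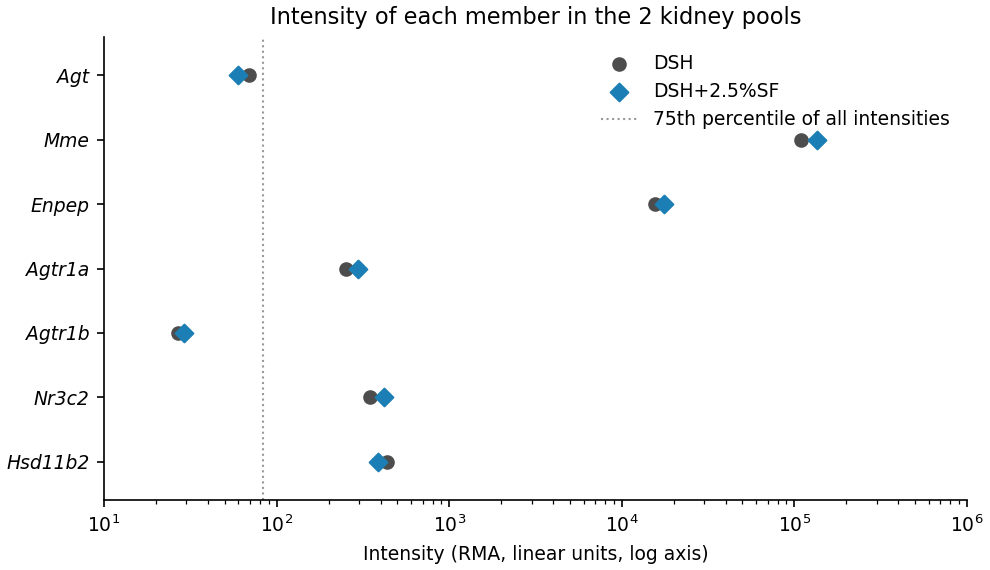
Intensity (RMA values, linear units on a log axis) of the 7 measured genes in the DSH pool (circles) and the DSH+2.5%SF pool (diamonds), 1 array each; the dotted line is the 75th percentile of all intensities, 83.8. The markers of the pools nearly coincide for every gene, with Agt and Agtr1b below the line, and levels of different genes cannot be compared because each has its own probes.

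Agt encodes angiotensinogen, the precursor of all angiotensins, which is made mainly by the liver and also by the kidney. Its probe set read 68.8 in the DSH pool against 59.9 in the DSH+2.5%SF pool. The DSH+2.5%SF pool was thus the dimmer one, with a log2 ratio of −0.20. Both values were below 83.8, the 75th percentile of all intensities, and probe sets under that level are called dim here. A larger absolute log2 ratio than that of Agt was found for 38.2% of all genes. Liver markers were looked at beside it, since liver is the main source of Agt. Of 6 measured, 1 was above the dim level (Fgb, the fibrinogen beta chain gene, which was named after its values were seen). Their summed intensity was 227 in DSH and 215 in DSH+2.5%SF, of which Fgb alone held 145 in DSH and 137 in DSH+2.5%SF. Apoa1, a lipoprotein gene, had the lowest log2 ratio of that list at −0.26 and Tat, a tyrosine-degrading enzyme gene, the highest at 0.14. None of the 6 liver markers passed. None was at 0, but the lowest intensity of any probe set was 3.89, so this does not bear on detection.

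Mme and Enpep encode membrane peptidases of the proximal tubule brush border that shorten angiotensins. Neprilysin, the product of Mme, forms angiotensin 1-7 from angiotensin I and also degrades natriuretic peptides and kinins. Mme had an intensity of 108658 in the DSH pool against 135202 in the DSH+2.5%SF pool, a log2 ratio of 0.32. Aminopeptidase A, the product of Enpep, removes the first residue of angiotensin II to yield angiotensin III. Enpep had an intensity of 15515 in the DSH pool against 17660 in the DSH+2.5%SF pool, a log2 ratio of 0.19. For both genes the DSH+2.5%SF pool was the brighter one, by 1.24-fold and 1.14-fold, and neither passed. Of all genes 18.9% had a larger absolute log2 ratio than Mme and 40.7% a larger one than Enpep.

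These enzymes sit in the proximal tubule and in podocytes, so markers of both places were set beside them. Of 9 measured hydrolases of the brush border none passed, and their median log2 ratio was 0, with 2 of the 9 at exactly the same intensity in both pools. The highest value was that of Dpep1, a dipeptidase gene, at 0.23. The lowest was that of Ggt1, the gamma-glutamyltransferase gene, at −0.59, with a ratio of 0.666 and a Z-score of −1.82. Of 12 measured genes of the proximal tubule 1 was lower, the water channel gene Aqp1, at 31005 in the DSH pool against 17943 in the DSH+2.5%SF pool, a call not kept with a Z-score that uses the 1000 probe sets closest in brightness, the brightness-dependent Z-score (−1.41). Slc22a6, an organic anion transporter gene, had the highest log2 ratio of that list at 0.37, and the median of the list was 0.01. Of 4 measured podocyte genes none passed, with log2 ratios from −0.10 for Ptpro to 0.60 for Podxl. In whole-kidney RNA, fewer cells of a type and less RNA per cell cannot be told apart.

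Agtr1a, the main AT1 receptor gene of the rodent kidney, read 254 in the DSH pool against 297 in the DSH+2.5%SF pool. The ratio was 1.17 and the log2 ratio 0.23, with the DSH+2.5%SF pool the brighter one. Agtr1b, its close copy, read 26.8 in the DSH pool against 28.9 in the DSH+2.5%SF pool. That is a log2 ratio of 0.11 at a dim level, near the median of all probe sets (22.9 in DSH and 23.7 in DSH+2.5%SF). Neither receptor gene passed. The coding parts of these copies are much alike, and whether their probe sets read them separately was not tested.

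Nr3c2 encodes the mineralocorticoid receptor. Its probe set read 345 in the DSH pool against 420 in the DSH+2.5%SF pool, a ratio of 1.22 and a log2 ratio of 0.28. Hsd11b2 encodes the dehydrogenase that inactivates corticosterone in the distal nephron and so keeps that receptor open to aldosterone. Its probe set read 438 in the DSH pool against 389 in the DSH+2.5%SF pool, a log2 ratio of −0.17. The receptor gene was thus brighter in DSH+2.5%SF and the enzyme gene dimmer, and neither passed. Of all genes 23.4% had a larger absolute log2 ratio than Nr3c2 and 42.9% a larger one than Hsd11b2.

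**Figure D2:**
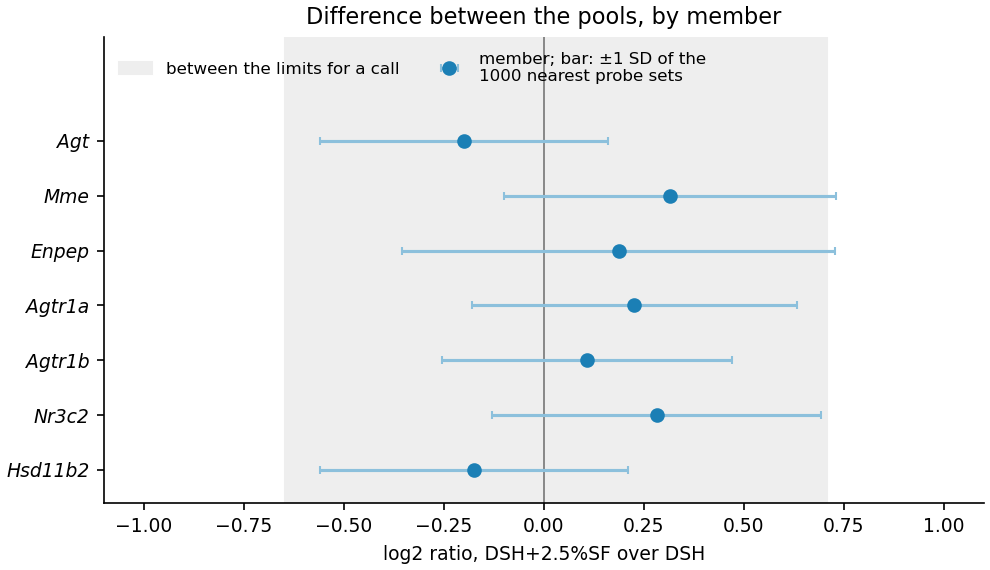
Log2 ratio of DSH+2.5%SF over DSH (horizontal axis) for the 7 measured genes, with bars of 1 SD of the log2 ratios of the 1000 probe sets nearest in brightness, which is a spread over probe sets and no replicate error. Every point lies in the grey band between the limits for a call, from −0.65 to 0.71, and every bar crosses 0.

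The scatter between the arrays depends on brightness, and near the 7 genes its SD was 0.36 to 0.54 on the log2 scale. Measured against it, the largest absolute Z-score among the 7 was 0.74, that of Mme, followed by 0.66 for Nr3c2. None of the 7 passed with this Z-score, for which 1.91% of all genes passed in either direction, and none passed with the ratio criterion alone, for which 3.81% did.

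Among other genes of the pathway, grouped in 5 lists, 42 of 47 were measured, 2 were higher, none was lower, and the median log2 ratio was 0. Of the 42, 4 held exactly the same intensity in both pools. Both genes that passed were in the list of aldosterone and mineralocorticoid receptor targets.

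Of the 16 target genes, all measured, 2 were higher in DSH+2.5%SF and none was lower, where 1.09% of all genes were higher. The list was chosen with earlier results of these data known, so its count and median cannot show an excess over all genes. Sgk1 encodes a kinase through which aldosterone keeps the epithelial sodium channel at the cell surface. Its probe set read 443 in the DSH pool against 929 in the DSH+2.5%SF pool, a 2.10-fold higher level with a Z-score of 3.07. Zbtb16 encodes a zinc finger transcription factor induced by corticosteroids. Its probe set read 36.1 in the DSH pool against 80.0 in the DSH+2.5%SF pool, 2.22-fold higher with a Z-score of 3.31, at a dim level in both pools. Both passed as well with the brightness-dependent Z-score, at 2.55 for Sgk1 and 2.96 for Zbtb16. A larger absolute log2 ratio was found for 0.303% of all genes in the case of Sgk1 and for 0.235% in the case of Zbtb16.

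The other 14 target genes passed in neither direction. Over the 16, the log2 ratio was above 0 for 11 and below 0 for 5, and the median was 0.25, beside 0 over all genes and −0.06 over genes above the dim level. The lowest log2 ratio was that of Cnksr3, a scaffold gene of sodium channel regulation, at −0.40. Some further genes of the list are named here after their values were seen. Fkbp5, which encodes a chaperone partner of steroid receptors, read 112 in the DSH pool against 168 in the DSH+2.5%SF pool, a log2 ratio of 0.58 and a Z-score of 1.63. Per1, a clock gene that aldosterone also induces, was at 102 and 144, a log2 ratio of 0.50.

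The 3 subunits of the epithelial sodium channel, the main transport target of aldosterone, had log2 ratios of both signs. Scnn1a, the alpha subunit, read 215 in the DSH pool against 304 in the DSH+2.5%SF pool. Scnn1g, the gamma subunit, stood at 672 in the DSH pool against 947 in the DSH+2.5%SF pool. Each had a log2 ratio of 0.50, and both were brighter in DSH+2.5%SF. Scnn1b, the beta subunit, stood at 325 in the DSH pool against 248 in the DSH+2.5%SF pool, a log2 ratio of −0.39 with the DSH+2.5%SF pool the dimmer one. None of the 3 passed, and these directions were the same under median centring, quantile normalization and subtraction of a loess trend. Sgk1, Zbtb16, Fkbp5 and Per1 also respond to the glucocorticoid receptor, so their levels do not tell the receptors apart.

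**Figure D3:**
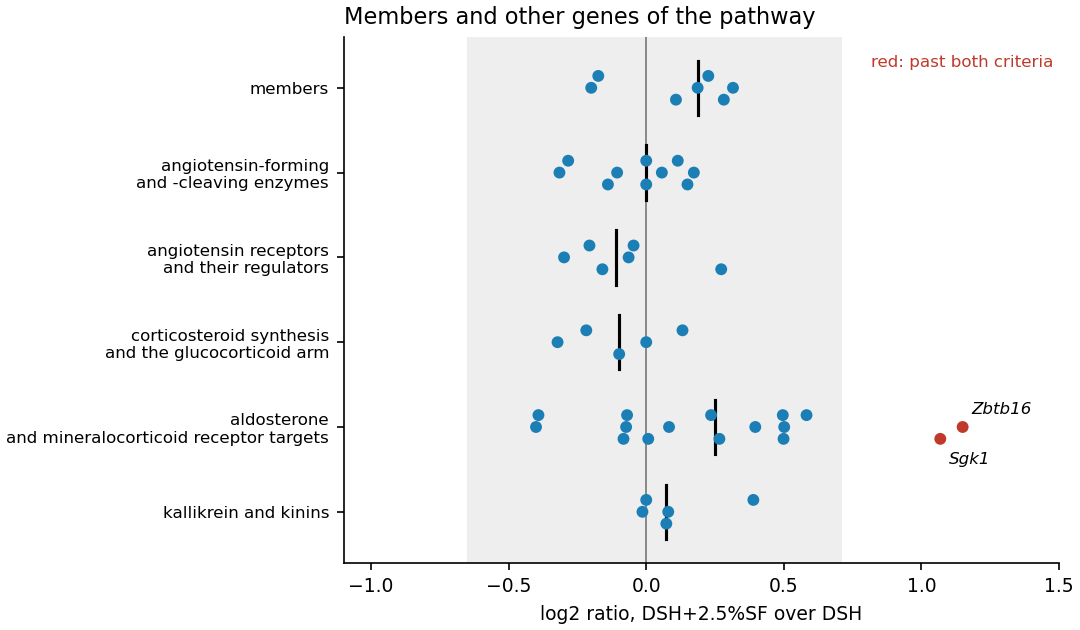
Log2 ratio of DSH+2.5%SF over DSH (horizontal axis) for the measured members and for the measured genes of 5 pathway lists; each point is 1 gene, black bars are medians and the grey band lies between the limits for a call. Only Sgk1 and Zbtb16, in red, lie outside the band, and the medians run from −0.11 for receptors and their regulators to 0.25 for aldosterone and mineralocorticoid receptor targets.

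Markers of the aldosterone-sensitive distal nephron, where these targets act, moved both ways. Of 12 measured, 1 was higher and 1 was lower. Calb1, which encodes the calcium-binding protein of the distal convoluted and connecting tubule, stood at 10832 in the DSH pool against 27005 in the DSH+2.5%SF pool, 2.49-fold higher. Aqp3, the basolateral water channel gene of collecting duct principal cells, stood at 660 in the DSH pool against 330 in the DSH+2.5%SF pool, a Z-score of −3.04 that passed as lower. Both passed also with the brightness-dependent Z-score, which was 2.57 for Calb1 and −2.57 for Aqp3. The log2 ratio was below 0 for 8 of the 12 and above 0 for 4, with a median of −0.09. The summed intensity of the list was 44024 in DSH and 57921 in DSH+2.5%SF. That sum holds the rise of Calb1 from 10832 to 27005, so its direction does not stand for the list. None of the 12 had an intensity of 0, but neither did any probe set, so this does not bear on detection. The list shares the channel subunits and Slc12a3 with the list of targets. The part of these markers in the levels of Nr3c2, Hsd11b2, Sgk1 and Zbtb16 was not tested.

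None of the genes in the remaining 4 pathway lists passed. Among enzymes that form or cleave angiotensins, 10 of 12 were measured, with log2 ratios from −0.32 for Rnpep, an aminopeptidase gene, to 0.17 for Cma1, the mast cell chymase gene, which was dim at 8.43 in DSH and 9.51 in DSH+2.5%SF. Their median was 0, and 2 of the 10 held exactly the same intensity in both pools. Among receptors and their regulators all 6 were measured, with a median of −0.11. Agtr2, the AT2 receptor gene, had the lowest log2 ratio at −0.30 and intensities of 15.9 and 12.9, both under the median of all probe sets. Rgs2, which encodes a brake on signaling by the AT1 receptor, had the highest at 0.27. Of 7 genes of corticosteroid synthesis and the glucocorticoid arm 5 were measured, and their median was −0.10. H6pd, which supplies the cofactor of the enzyme that regenerates corticosterone, had the lowest log2 ratio at −0.32, and the steroid hydroxylase gene Cyp21a1 the highest at 0.13.

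Kallikrein cuts kinins from kininogens, and both angiotensin-converting enzyme and neprilysin break kinins down. Of 6 kallikrein and kinin genes 5 were measured and none passed. Klk1, the tissue kallikrein gene, stood at 16385 in the DSH pool against 21461 in the DSH+2.5%SF pool, a log2 ratio of 0.39 and the highest of the list. Kng2l1, a kininogen gene, had the lowest at −0.01. The median of the list was 0.07.

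Renin cells, mesangium, vascular muscle and related mural cells were represented by 7 genes, of which 2 were lower and none was higher. Akr1b7, the renin cell gene of the list, named after its values were seen, was dim at 24.3 in DSH and 25.5 in DSH+2.5%SF. Rgs5, a gene of pericytes, was 1.80-fold lower, from 1523 to 847, and Tagln, a smooth muscle gene, was 1.72-fold lower, from 846 to 492. With the brightness-dependent Z-score both calls were lost, Tagln at −1.89 and Rgs5 just short of the limit. Itga8, an integrin gene of mesangial cells, had the highest log2 ratio of the list at 0.13, and the summed intensity was 5577 in DSH and 3868 in DSH+2.5%SF. That sum holds the falls of Rgs5 and Tagln. It also holds that of Acta2, named after its values were seen, from 2663 to 1995, so its size does not stand for the list. The log2 ratio was below 0 for 5 of the 7 and above 0 for 2. Endothelial cells carry angiotensin-converting enzyme on their surface. Of 7 measured endothelial genes none passed, and all 7 had log2 ratios below 0, from −0.36 for Cdh5 to −0.07 for Vwf, where 47.5% of all genes and 58.7% of genes above the dim level, to which 6 of these 7 belong, were below 0 too. Their median was −0.12 and their summed intensity was 6984 in DSH and 6331 in DSH+2.5%SF.

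**Figure D4:**
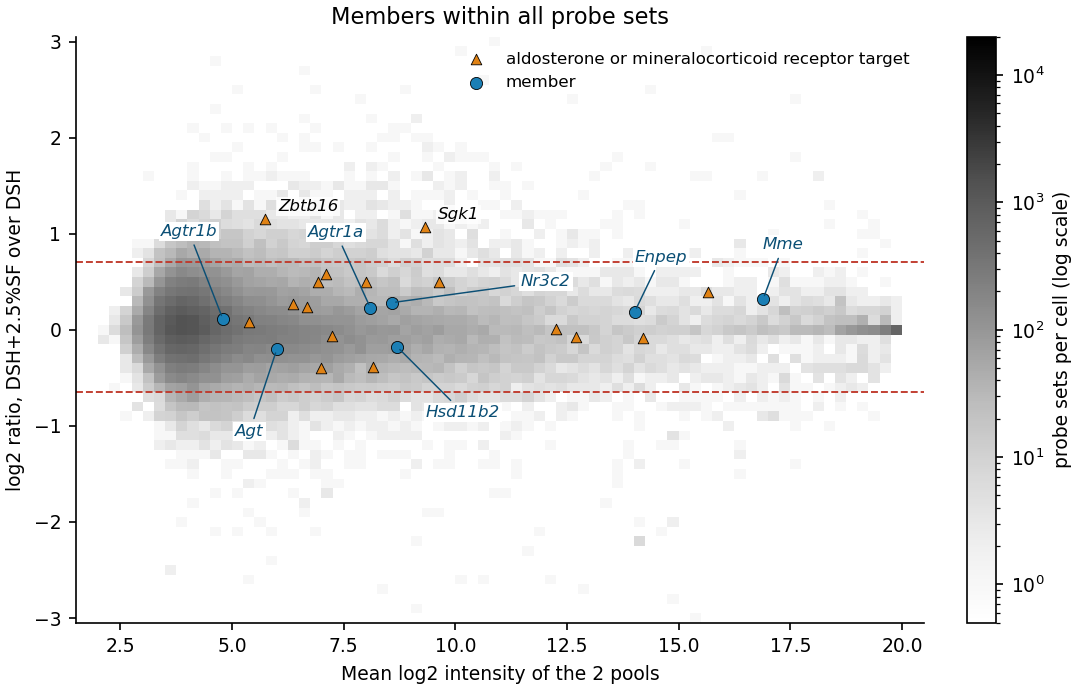
Log2 ratio of DSH+2.5%SF over DSH (vertical axis) against the mean log2 intensity of the 2 pools (horizontal axis) for all 68842 probe sets in grey, darker where more lie, except 13 beyond the axes; circles are the 7 measured members, triangles the 16 aldosterone and mineralocorticoid receptor targets, and dashed lines the limits for a call. The members lie inside the bulk of probe sets of their brightness, and only Zbtb16 and Sgk1 among the triangles lie above the upper line.

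The pools were kidney by their markers. All 8 measured of 9 kidney markers were above the dim level in at least 1 pool, with intensities from 259 to 469762. Of these, Cdh16, a kidney cadherin gene, was 1.76-fold lower in DSH+2.5%SF, a call that the brightness-dependent Z-score did not keep (−1.71). The highest log2 ratio was 0, that of Umod, the uromodulin gene, and of Slc34a1, the phosphate transporter gene of the proximal tubule. Both genes held exactly the same intensity in both pools. The 4 measured of 6 adrenal cortex genes were all dim, with intensities from 13.2 to 23.6, and 3 of them held the same intensity in both pools, as did 7.46% of all probe sets. Of 4 adipose genes 2 were above the dim level. None of the 4 passed, with log2 ratios from −0.22 for Lep to 0.50 for Adipoq, which read 91.9 in DSH and 130 in DSH+2.5%SF. Of 6 leukocyte genes 1 was lower, the B cell gene Cd79a at 1.58-fold, a call that the brightness-dependent Z-score did not keep (−1.73), and Cd68 had the highest log2 ratio at 0.11.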

How the data were processed

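Kidney RNA pooled from 3 rats per group was measured on 2 Clariom D rat arrays, 1 per group. The deposited values are intensities on a linear scale, which the authors obtained by RMA (background correction, normalization between arrays and summary of probes); the submitters' processing notes name Affymetrix Expression Console 1.4.1. For the probe sets, a genome build was not given in the sources used here. From them log2 values, log2 ratios and Z-scores were computed for 68842 probe sets. The platform annotation gave 23446 probe sets 1 gene symbol, 505 several and 44891 none used here. With 1 array per group, their number limits the precision, and no test was possible.

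The members and gene lists were chosen with earlier results of these data known. Named were all members, and of each list every gene past both criteria and those with the highest and lowest log2 ratio. Also named were the 3 sodium channel subunits, and Slc12a3 as a gene shared between lists. Other exceptions were marked. Alternatives were a brightness-dependent Z-score (from the 1000 closest probe sets), the ratio alone, ratio limits of 2 and 0.5, quantile normalization, median centring, removal of a loess trend, the mean of a gene's probe sets, and leaving out dim probe sets. Of the 8 members 5 had a promoter in the RefSeq table. Python 3.11.15, numpy 2.4.6, pandas 2.3.3, statsmodels 0.14.6 and matplotlib 3.10.9 were used.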

Additional observations from a re-analysis of the deposited data

How the results depend on the processing

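None of the 7 measured members passed under any of the 8 alternatives, and none changed sign. Their median log2 ratio lay between 0.14 and 0.23, and that of Mme, the largest, between 0.27 and 0.37. Median centring lowered every log2 ratio by 0.05. Of the aldosterone and mineralocorticoid receptor targets 1, Sgk1, passed in place of 2 when dim probe sets were left out, because Zbtb16 was dim, and Agt and Agtr1b were left out there as well. Both targets passed under each of the other 7 alternatives, and none of the genes in the remaining 4 pathway lists passed under any of the 8. No paired analysis was possible because each group is 1 pool on 1 array, and for the same reason no replicate could be left out. Differences among the pooled rats cannot be told apart from an effect of SF, and levels near the median intensity, as for Agtr1b, or under it, as for Agtr2, bound what could be detected.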
